A study of Mus musculus with 6 samples.

Results

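Complement is a cascade of secreted proteases and opsonins that marks and lyses targets, held in check on host cells by soluble and membrane-bound inhibitors. The genes described here are 10 complement components and regulators, C3, C4b, C1ra, Cfb, Cfd, Cfi, Serping1, Masp1, Cd55 and Cd59a, taken by symbol from a table of 24421 mouse genes, and all 10 are listed there. The libraries were made from ribosomal RNA-depleted total RNA of 3T3-L1, a line of mouse embryonic fibroblasts that serves as a preadipocyte model. The 3 wild-type and 3 Ube3d knockout samples were undifferentiated, growing in high-glucose DMEM with 10% fetal bovine serum and kept at or below 80% confluence. Ube3d encodes a ubiquitin ligase. The sources used here do not give how the knockout was made or whether it is 1 clone or several. The titles call the samples biological replicates without saying how separate the cultures were, so p-values measure only the spread between these samples.

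The classical pathway starts when C1q, with its proteases C1r and C1s, cleaves C4 and C2. The lectin pathway does the same through the MASP proteases, and the alternative pathway amplifies C3 cleavage through factor B and factor D. All routes meet at C3, and the terminal components then form the membrane attack complex. Liver is the main source of the plasma proteins, while fibroblasts and fat cells make several of them locally, and factor D is the adipocyte product known as adipsin.

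Library totals ran from 23767181 to 29389480 gene counts. Ube3d, listed under its older symbol Ube2cbp, had 145 to 229 counts in the wild-type libraries and 43 to 56 in the knockout, so that the groups did not overlap. Levels are CPM, that is, counts per library size, scaled with TMM factors, and RPKM where genes are compared with each other, since RPKM also divides by gene length. Changes are log2 fold changes of knockout over wild type with their SE, and a gene is called at an edgeR quasi-likelihood adjusted p under 0.05 over 12947 tested genes. Of the fibroblast markers, Col1a1, Col1a2, Vim, Thy1 and Pdgfra were abundant and Fap was at 0 counts in every library. The leukocyte genes Adgre1 and Tyrobp and the adipocyte gene Lep were also at 0 in every library. Ptprc, the pan-leukocyte antigen, had 0 to 2 counts per library, Adipoq and the hepatocyte gene Alb 0 to 1. Other genes of the marker lists were expressed: in wild type, Cd14 stood at 10.5 ± 1.0 CPM, Csf1r at 2.87 ± 0.15 and Cd68 at 2.30 ± 0.75, and of the adipocyte list Lpl at 128 ± 4.0 CPM, Plin4 at 86.0 ± 6.6 and Fabp4 at 3.59 ± 0.26 (SD, n = 3).

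The complement transcripts were low to moderate in level. Masp1 was the most abundant of the 10 per length in both genotypes, at 7.42 ± 0.45 RPKM in wild type and 6.28 ± 0.083 in the knockout (SD, n = 3), against a median of 8.74 and 8.73 RPKM over all tested genes. In wild type it was followed by Cd59a at 3.09 ± 0.028 RPKM and C1ra at 2.98 ± 0.17, whose libraries overlapped, then Cd55 at 1.45 ± 0.028 and Cfb at 1.30 ± 0.17, whose libraries also overlapped. C3 stood at 0.418 ± 0.029 RPKM and Serping1 at 0.271 ± 0.044. In the knockout Cfb moved to the second place at 3.10 ± 0.063 RPKM. Cd59a, C1ra and Cd55 followed at 1.99 ± 0.014, 1.87 ± 0.34 and 1.78 ± 0.34 RPKM, each overlapping its neighbour in the order, and Serping1 and C3 overlapped at 0.175 ± 0.089 and 0.169 ± 0.013 RPKM. Cfd, C4b and Cfi were the last in both genotypes, with means of at most 0.0275 RPKM.

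**Figure D1:**
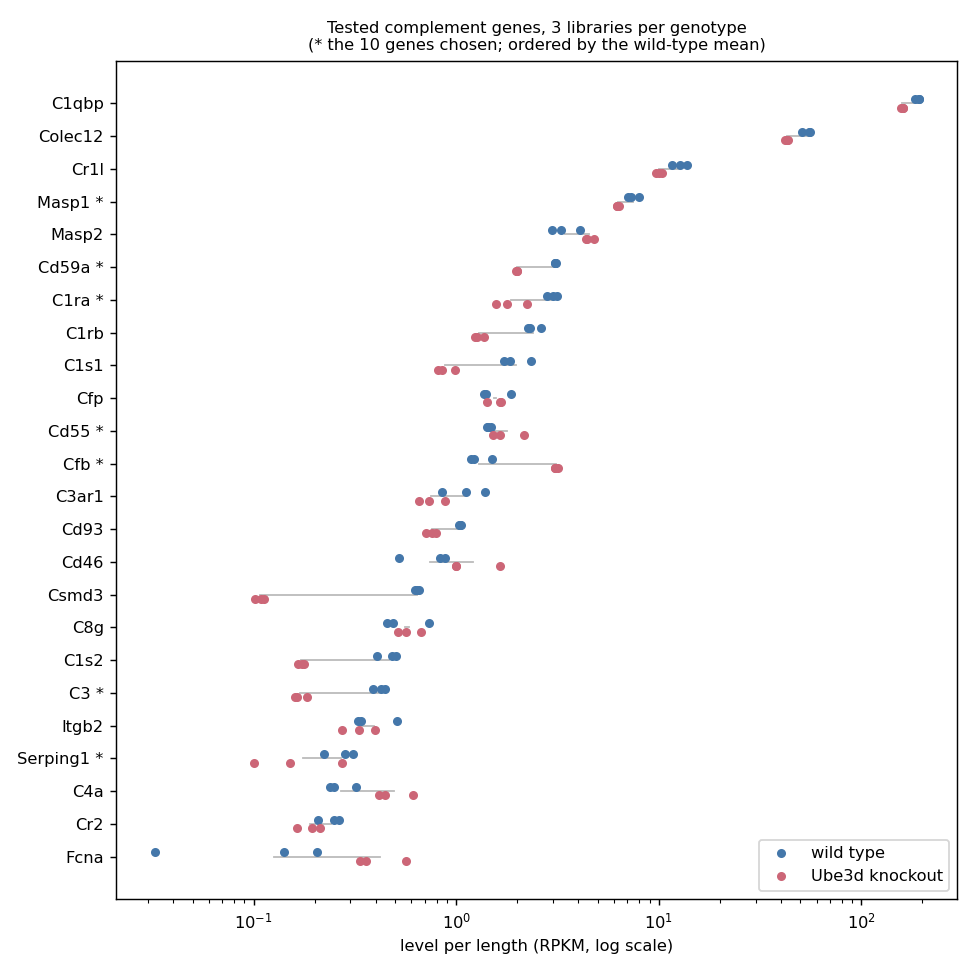
Level per length (RPKM, log axis) of 24 tested complement genes, with 3 wild-type (blue) and 3 Ube3d knockout (red) libraries per gene, ordered by the wild-type mean. Masp1 is the highest of the 10 chosen genes (asterisks) in both genotypes, and Cfb, Csmd3 and C3 show groups set well apart.

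Of the 10 genes, 7 had enough counts to be tested, and 5 of these were called, 1 higher (Cfb) and 4 lower (C3, C1ra, Cd59a and Masp1). The background is high, since 61.4% of all tested genes were called, 30.3% higher and 31.2% lower. The share of called genes among the 7 is therefore near that of the transcriptome. The median log2 change of the 7 was −0.60 and their median absolute change 0.63, beside 0.004 and 0.22 over all tested genes. The 10 genes were chosen with earlier results of these data known. All 7 also stood below the median RPKM of tested genes in both genotypes. The medians thus describe these 7 genes and are no test of the set. The signed median is the value of Serping1, which was not called, and it was −0.32 without knockout replicate 2. Both C3 and Cfb were called and changed at least 2-fold, as 7.7% of tested genes were and did. The filter on low counts left out C4b, Cfd and Cfi, so these figures describe only the 7 genes that passed it. Serping1 passed it through its wild-type libraries (12, 12 and 15 counts), where its mean was higher than in the knockout (7, 5 and 14 counts).

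**Figure D2:**
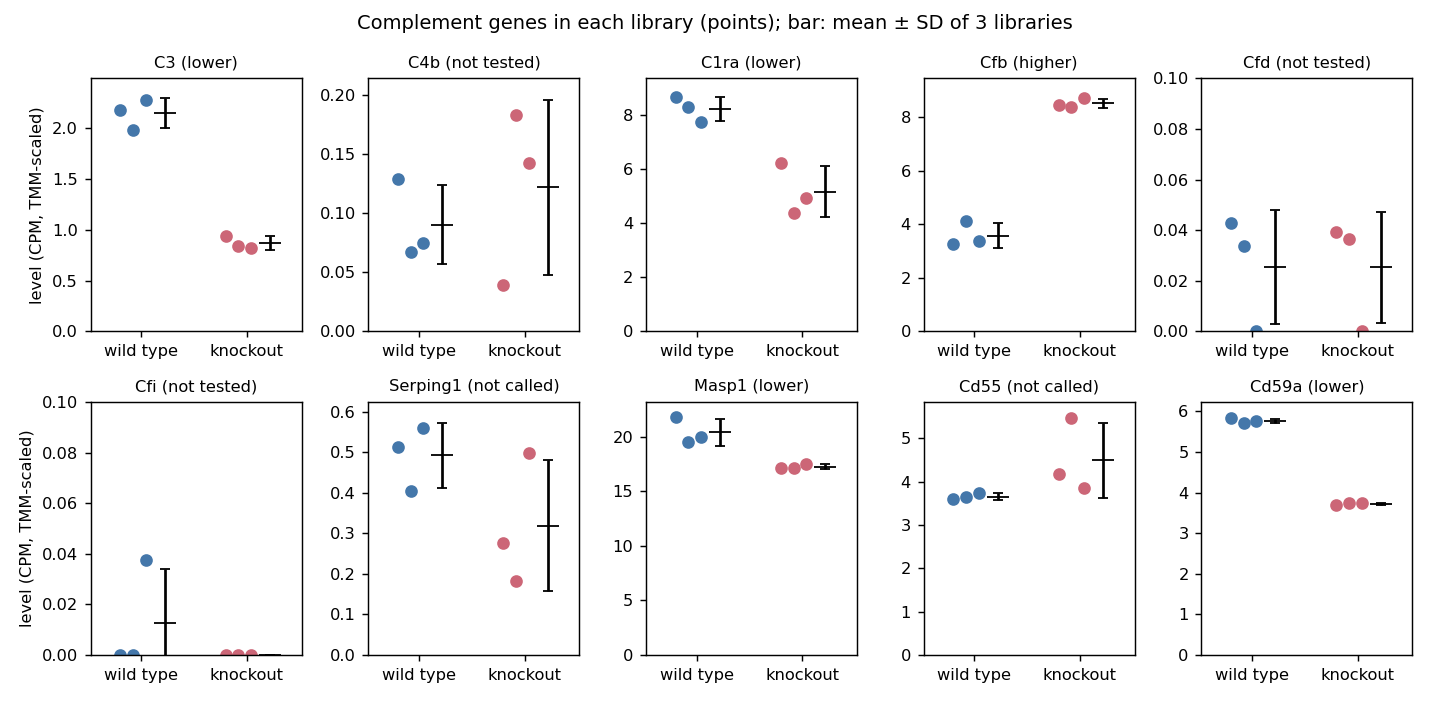
Level of each of the 10 complement genes in every library (CPM, TMM-scaled, axes from 0, a separate scale for each gene), with the mean and SD of 3 libraries beside the points. Cfb lies between 8.40 and 8.72 CPM in the knockout and between 3.26 and 4.11 in wild type, while C3, C1ra, Masp1 and Cd59a lie lower in every knockout library, and Serping1, Cfd, Cfi and C4b overlap.

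The protease and substrate of the alternative pathway convertase changed in opposite directions. Cfb encodes factor B, the zymogen that binds C3b and supplies the catalytic subunit of the convertase. It lies at chromosome 17, 34856374 to 34862514 (mm10, minus strand), with 18 exon blocks. Its counts were 76, 122 and 90 in the wild-type libraries against 215, 229 and 245 in the knockout. These are 3.26, 4.11 and 3.36 in wild type against 8.45, 8.40 and 8.72 in the knockout, with every knockout library above every wild-type one. Cfb rose 2.37-fold (log2 1.24, SE 0.12, edgeR adjusted p = 1.5e-14), a change larger than that of 94.6% of tested genes.

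C3 encodes the central opsonin on which all activation routes converge. It lies on the same chromosome at 57203967 to 57228136, minus strand, with 41 exon blocks. The wild-type libraries held 51, 59 and 61 counts and the knockout libraries 24, 23 and 23. C3 levels were thus 2.18, 1.99 and 2.28 CPM in wild type against 0.943, 0.844 and 0.819 in the knockout, with no overlap, where 64.3% of tested genes showed none. C3 fell 2.47-fold (log2 −1.30, SE 0.24, edgeR adjusted p = 2.2e-06). Per length, Cfb exceeded C3 in both genotypes.

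Cfd encodes factor D, the protease that cleaves C3b-bound factor B. It had 1, 1 and 0 counts in the wild-type libraries and 1, 1 and 0 in the knockout, under the floor of 3 counts per library (0.101 to 0.128 CPM), so no fold is given. Properdin, the stabiliser of the convertase encoded by Cfp, is not among the 10 but was expressed, at 2.35 ± 0.41 CPM in wild type and 2.41 ± 0.20 in the knockout (SD, n = 3), and was not called (log2 0.02, SE 0.18, edgeR adjusted p = 0.940).

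The promoter of C3 is shown with those of Cd59a, which also fell, and Cd55, which was not called, because these are the tested genes among the 10 whose upstream window is in the RefSeq promoter table (GRCm38.p6) and holds no annotated exon. Of the 10 genes, 5 have an entry there. Each is the 250 bases before the start site, 5′ to 3′ on the strand of the gene. Capitals mark matches, on either strand, to 4 short patterns: the core of the interferon response element, which is GAAA repeated after 2 bases of any kind, a form of the kappaB site, which is GGG and CC with 5 bases of any kind between them, TTNNGCAA, a form of the C/EBP site, and TATAAA.
C3, chr17:57228137-57228386, minus strand: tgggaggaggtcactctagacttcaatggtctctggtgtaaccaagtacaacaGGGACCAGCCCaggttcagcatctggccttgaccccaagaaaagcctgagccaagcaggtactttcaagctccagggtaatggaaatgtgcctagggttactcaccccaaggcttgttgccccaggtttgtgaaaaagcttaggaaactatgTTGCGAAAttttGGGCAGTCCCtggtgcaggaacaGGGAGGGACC
Cd59a, chr2:104095551-104095800, plus strand: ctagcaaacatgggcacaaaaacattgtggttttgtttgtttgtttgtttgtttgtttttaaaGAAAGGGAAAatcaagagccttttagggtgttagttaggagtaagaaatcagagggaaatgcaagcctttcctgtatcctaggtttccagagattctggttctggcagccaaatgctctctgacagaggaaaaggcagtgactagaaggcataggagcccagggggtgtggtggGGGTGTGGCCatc
Cd55, chr1:130462745-130462994, minus strand: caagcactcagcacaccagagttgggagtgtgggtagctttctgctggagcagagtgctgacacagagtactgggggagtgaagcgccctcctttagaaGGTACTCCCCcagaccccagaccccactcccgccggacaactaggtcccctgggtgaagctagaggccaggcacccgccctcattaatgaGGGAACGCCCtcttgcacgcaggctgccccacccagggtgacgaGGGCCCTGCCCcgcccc
The C3 window holds the kappaB form in 3 places, some read on both strands, and TTNNGCAA once, on the opposite strand 45 to 38 bases before the start. The Cd59a window holds the interferon response core 187 to 178 bases before the start and the kappaB form once, and the Cd55 window holds only the kappaB form, in 3 places and partly on both strands. Of 32851 promoter windows of this length, 45.8% hold the kappaB form, 12.4% TATAAA, 9.56% TTNNGCAA and 2.98% the interferon response core. No window of these 3 holds TATAAA. Such matches describe letters and not bound sites.

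In the classical pathway the proteases of the C1 complex were lower together. C1ra encodes C1r, which activates C1s within C1. It lies at chromosome 6, 124512621 to 124523440 on the plus strand, with 11 exon blocks. Its counts were 202, 246 and 207 in wild type against 158, 119 and 138 in the knockout. C1ra levels were 8.65, 8.28 and 7.73 CPM in wild type against 6.21, 4.36 and 4.91 in the knockout, so that the groups did not overlap and knockout replicate 1 was the highest of its group. C1ra fell 1.596-fold (log2 −0.67, SE 0.12, edgeR adjusted p = 6.9e-07).

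The neighbouring copies moved the same way. C1rb, the second mouse C1r gene, fell 1.86-fold (log2 −0.89, SE 0.14, edgeR adjusted p = 1.4e-07), from 5.19 ± 0.43 to 2.80 ± 0.16 CPM. The C1s gene C1s1 fell 2.23-fold (log2 −1.16, SE 0.14), from 5.87 ± 0.97 to 2.64 ± 0.28 CPM. The other C1s gene, C1s2, fell 2.67-fold (log2 −1.42, SE 0.31), from 1.24 ± 0.14 to 0.458 ± 0.016 CPM. All 4 lie within 123.5 kb. C1rl, a C1r-like protease gene that ends 1.98 kb upstream of C1ra on the same strand, was also lower, at 6.57 ± 0.69 CPM in wild type and 4.004 ± 0.26 in the knockout (log2 −0.72, SE 0.13, edgeR adjusted p = 1.0e-06). Of the 50-base stretches in the GENCODE M21 transcripts of C1ra, 48.0% also occur in those of C1rb, and 21.8% of those of C1s1 occur in C1s2, so the split of reads within each pair is uncertain. The median change of the other tested genes of chromosome 6 was −0.09. C1qa, C1qb and C1qc, the chains of the recognition subunit C1q, had 0 counts in every library.

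C4b encodes complement C4, the substrate of C1s and MASP2, and lies at chromosome 17, 34728381 to 34743897. It was nearly undetected, with 3, 2 and 2 counts in wild type against 1, 5 and 4 in the knockout. The groups overlapped, and the scaled ratio of the summed counts, 1.41, has an exact 95% binomial interval of 0.485 to 4.37 that covers counting error only. Its copy C4a took more reads, with 30, 51 and 36 counts in wild type against 61, 89 and 63 in the knockout. C4a rose 1.80-fold (log2 0.85, SE 0.20, edgeR adjusted p = 2.5e-04). Of the 50-base stretches of C4b transcripts, 34.6% occur in those of C4a, so reads of one may stand under the other. Stk19, which ends 0.54 kb upstream of C4a on the same strand, was at 8.52 ± 0.41 CPM in wild type and 8.60 ± 0.12 in the knockout and was not called (log2 0.01, SE 0.10, edgeR adjusted p = 0.941).

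C2, which supplies the protease subunit of the classical convertase as Cfb does for the alternative one, ends 88 bases upstream of Cfb on the same strand. It had 0, 1 and 1 counts in wild type against 5, 7 and 9 in the knockout, too few for the test. The scaled ratio was 10.4, with an exact 95% binomial interval of 2.53 to 91.2. No 50-base stretch of Cfb transcripts occurs in those of C2. GENCODE M21 also annotates a gene, Gm20547, that spans both.

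**Figure D3:**
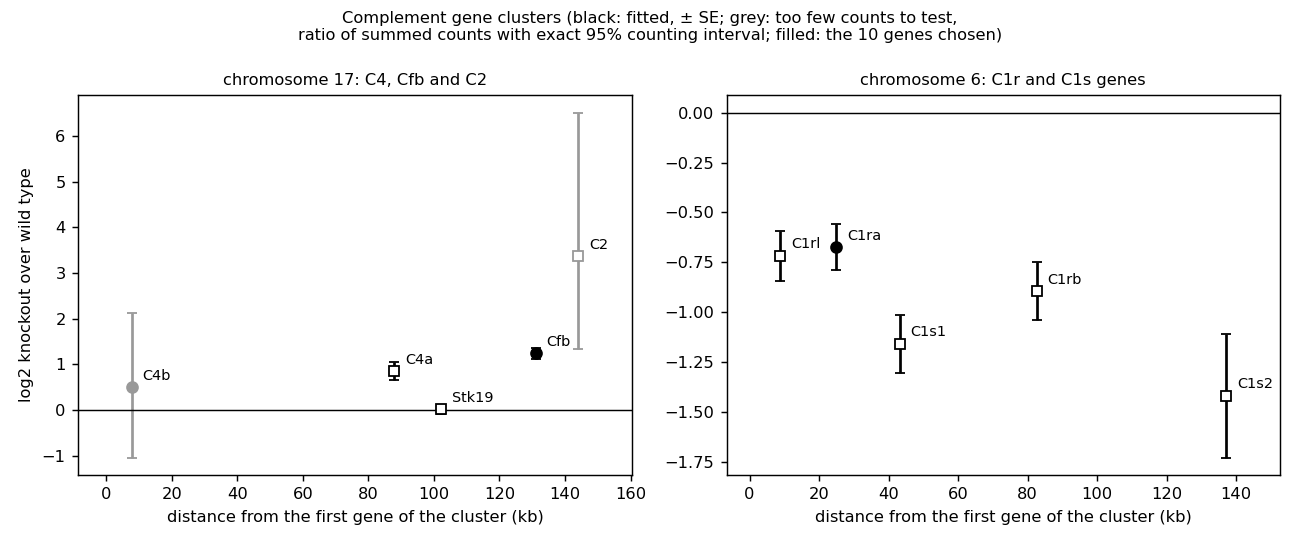
Log2 ratio of knockout over wild type for the gene cluster around C4, Cfb and C2 on chromosome 17 (left), where Stk19 is no complement gene, and the C1r and C1s cluster on chromosome 6 (right), against the distance of each gene's middle from the first gene (kb). Black points are fitted values ± SE, grey points are ratios of summed counts with exact 95% intervals, and filled points are genes of the 10. All 5 plotted genes of the chromosome 6 cluster lie below 0, between −0.67 and −1.42, and in the chromosome 17 cluster C4a and Cfb lie above 0 with Stk19 between them at 0.01. C3 and C3ar1, elsewhere on these chromosomes, are not plotted.

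Masp1 encodes a protease of the lectin pathway that activates MASP2, and an alternative product, MASP3, that matures factor D. The gene lies at chromosome 16, 23451785 to 23520590 on the minus strand. Its counts were 510, 579 and 534 in wild type against 436, 468 and 493 in the knockout. Levels of Masp1 were 21.8, 19.5 and 19.95 CPM in wild type against 17.1, 17.2 and 17.5 in the knockout, without overlap. The fall was small, 1.18-fold (log2 −0.24, SE 0.07, edgeR adjusted p = 0.0020), and 52.9% of tested genes changed by as much or less. The gene counts do not separate the MASP1 and MASP3 products.

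Other lectin pathway genes went both ways. Colec12, a membrane collectin, was the most abundant of them and fell 1.26-fold (log2 −0.33, SE 0.03), from 179 ± 8.2 to 142 ± 2.8 CPM. Masp2, the protease that cleaves C4 and C2, rose 1.29-fold (log2 0.37, SE 0.09), from 11.1 ± 1.9 to 14.5 ± 0.76 CPM. However, 1798 of its exon bases lie opposite exons of Tardbp, an abundant gene that was lower (log2 −0.26), and the sources used here do not give the strand setting of the counting. Fcna, encoding ficolin A, rose from 1, 8 and 5 to 12, 12 and 21 counts (log2 1.64, SE 0.48, edgeR adjusted p = 0.0023). It passed the count filter only through its knockout libraries, the group where it was higher. Mbl1, Mbl2 and Fcnb, which encode mannose-binding lectins and ficolin B, had 0 counts in every library.

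The soluble regulators among the 10 were scarce. Serping1 encodes the C1 inhibitor, which inactivates C1r, C1s and the MASPs, and lies on chromosome 2, 84765360 to 84775429. It had 12, 12 and 15 counts in wild type against 7, 5 and 14 in the knockout. The groups overlapped, with knockout replicate 3 at 0.498 CPM inside the wild-type range of 0.404 to 0.560. Serping1 was not called (log2 −0.60, SE 0.42, edgeR adjusted p = 0.218), so at this depth a change of that size was neither shown nor excluded. Its value rested on single libraries, at −0.32 (edgeR adjusted p = 0.574) without knockout replicate 2 and −1.09 (edgeR adjusted p = 0.0743) without knockout replicate 3. Relative to the median of the other tested genes of chromosome 2 it was −0.36. Cfi encodes factor I, the protease that cleaves C3b and C4b with the help of cofactors. It had 1 count in wild type, in replicate 3, and 0 in the knockout. Taken alone, a library with 0 counts allows up to 3.

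Membrane regulators did not move together. Cd59a encodes the lipid-anchored protein that blocks assembly of the membrane attack complex, and lies on chromosome 2, 104095801 to 104115410, plus strand. Its counts were 136, 170 and 154 in wild type against 94, 102 and 105 in the knockout. Cd59a levels were 5.825, 5.72 and 5.75 CPM in wild type against 3.69, 3.74 and 3.74 in the knockout, with no overlap. Cd59a fell 1.55-fold (log2 −0.63, SE 0.13, edgeR adjusted p = 2.0e-05). The other tested genes of chromosome 2 had a median change of −0.24, and relative to that median Cd59a stood at −0.39. The part of the chromosome-wide shift in its fall was not tested. Its copy Cd59b had 0 to 4 counts per library.

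Cd55 encodes decay-accelerating factor, which dissociates the C3 convertases, and lies on chromosome 1, 130439030 to 130462740, minus strand. Its counts were 84, 108 and 100 in wild type against 106, 149 and 108 in the knockout. The levels were 3.60, 3.64 and 3.74 CPM in wild type against 4.17, 5.46 and 3.84 in the knockout, and the groups did not overlap. Cd55 was not called (log2 0.30, SE 0.14, edgeR adjusted p = 0.067). Knockout replicate 2 was the highest, and without it the log2 change was 0.13 (edgeR adjusted p = 0.529), while without knockout replicate 3 it was 0.40 and passed the threshold (edgeR adjusted p = 0.026). The copy Cd55b had 0 to 4 counts per library.

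Of the other membrane regulators, Cr1l encodes Crry, a main rodent inhibitor of C3 convertases, and was the most abundant at 21.1 ± 1.7 CPM in wild type. It fell 1.28-fold (log2 −0.35, SE 0.07) to 16.6 ± 0.54 CPM. Csmd3, a CUB and sushi domain gene listed for its relation to the inhibitor gene Csmd1, fell 5.95-fold (log2 −2.57, SE 0.15), from 8.36 ± 0.19 to 1.40 ± 0.076 CPM. Cd46, membrane cofactor protein, was higher, at 0.905 ± 0.24 CPM in wild type and 1.47 ± 0.46 in the knockout (log2 0.70, SE 0.27, edgeR adjusted p = 0.022). That call was lost with DESeq2 (adjusted p = 0.071), without wild-type replicate 3 (edgeR adjusted p = 0.144) and without knockout replicate 1 (edgeR adjusted p = 0.247).

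**Figure D4:**
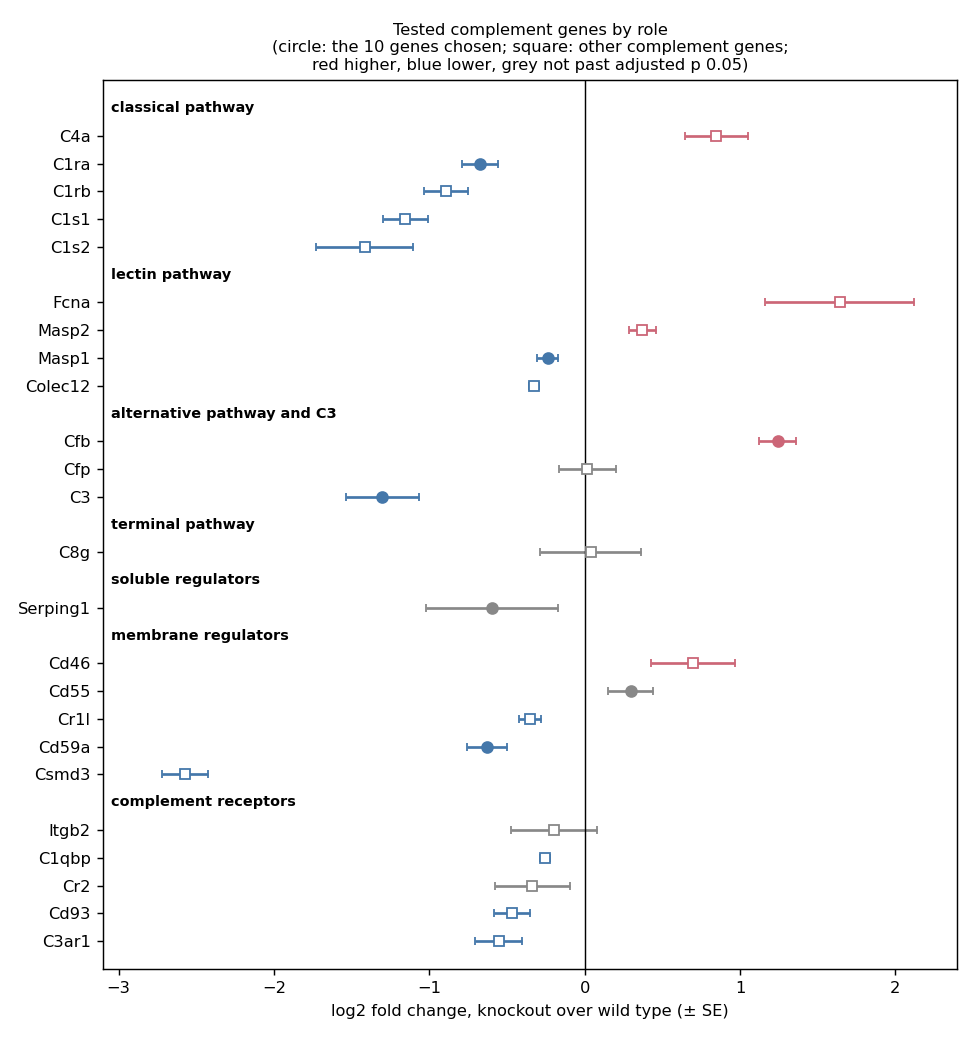
Log2 fold change, knockout over wild type, with its SE for 24 tested complement genes grouped by role, with circles for the 10 chosen genes and squares for the others (red higher, blue lower, grey not called). The C1r and C1s genes lie between −0.67 and −1.42, Cfb at 1.24 and C3 at −1.30 stand apart within the alternative pathway, and Csmd3 is the lowest at −2.57.

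Over the role lists, 47 further complement genes were read from the table, of which 17 were tested, 4 rose and 9 fell (61.4% of all tested genes were called). Another 17 had 0 counts in every library. Of the genes that rose, Fcna passed the count filter only through its knockout libraries. Of 5 tested classical pathway genes 1 rose and 4 fell, of 4 lectin pathway genes 2 rose and 2 fell, and of 5 membrane regulators 1 rose and 3 fell, counting the members of the 10 in each. Of 7 terminal pathway genes 1 was tested, C8g, a lipocalin-type subunit of C8 (log2 0.04, edgeR adjusted p = 0.927), and C6, C7, C8a, C8b and C9 were at 0. Receptors were lower or not called. The C3a receptor gene C3ar1 fell 1.47-fold (log2 −0.55, SE 0.15), although its groups overlapped, and Cd93 fell 1.38-fold (log2 −0.47, SE 0.12). C1qbp, a C1q-binding protein found mainly in mitochondria, fell 1.19-fold (log2 −0.25, SE 0.03). Of 5 tested receptor genes, 3 thus fell and 0 rose. Cd93 lies on chromosome 2, whose other tested genes had a median of −0.24.

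Complement genes are known targets of interferon, interleukin-6 and NF-kappaB signalling, and a list of such factors, receptors and acute-phase genes was read from the same fit. Of 16 tested, 4 rose and 9 fell, with a median of −0.22, beside 30.3% higher and 31.2% lower among all tested genes. Stat3, which carries interleukin-6 signals, fell 1.51-fold (log2 −0.60, SE 0.04), Cebpd 2.29-fold (log2 −1.20, SE 0.08) and Cebpb, on chromosome 2, 1.74-fold (log2 −0.80, SE 0.05). The interferon signalling gene Stat2 fell 2.35-fold (log2 −1.23, SE 0.09), and the receptor gene Ifnar2 fell 1.37-fold (log2 −0.45, SE 0.07). The NF-kappaB subunit genes Relb and Nfkb1 rose 1.43-fold (log2 0.52, SE 0.08) and 1.14-fold (log2 0.20, SE 0.04). Nfkb1 lies on chromosome 3, where the other tested genes had a median of 0.30. The acute-phase genes Lcn2 and Saa3 and the cytokine gene Il6 had 0 to 6 counts per library.

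Macrophages, hepatocytes and adipocytes also make complement, and their markers were read in the same libraries. The summed level of 10 macrophage and leukocyte genes was 17.6 to 19.3 CPM in wild type and 18.7 to 20.04 in the knockout, with 2 of 6 tested genes higher and 1 lower, beside 61.4% of all tested genes called. Cd14 was the largest part of that sum and was not called. It stood at 10.5 ± 1.0 CPM in wild type and 9.14 ± 0.45 in the knockout. Fcer1g, the Fc receptor gamma chain gene, rose 5.83-fold, from 0.160 ± 0.12 to 0.894 ± 0.27 CPM, but passed the count filter only through its knockout libraries. The macrophage gene Cd68 rose 1.64-fold. Lyz2, the lysozyme gene of myeloid cells, fell 2.92-fold, from 0.585 ± 0.21 to 0.200 ± 0.20 CPM, and passed that filter through its wild-type libraries. The summed level of 8 hepatocyte genes was 0.857 to 0.909 CPM in wild type and 0.118 to 0.257 in the knockout. Apob, the 1 gene tested, was lower and passed the filter only through its wild-type libraries. The summed level of 10 adipocyte genes was 214.5 to 221 CPM in wild type and 133.8 to 139.5 in the knockout, with 2 of 3 tested genes lower and Adipoq and Lep at or near 0. Lpl, encoding lipoprotein lipase, and Plin4, encoding a lipid droplet protein, made up nearly all of that sum. Lpl fell 2.49-fold, to 51.5 ± 0.69 CPM, and the fatty acid-binding protein gene Fabp4 fell 3.57-fold, to 0.999 ± 0.12 CPM, while Plin4 was not called (log2 −0.03, edgeR adjusted p = 0.479). The fibroblast and preadipocyte markers changed too, with 2 of 9 tested genes higher and 6 lower, beside the same 61.4%. Col1a1 fell 2.27-fold and the growth factor receptor gene Pdgfrb 1.62-fold. Dlk1 rose 2.17-fold and S100a4 1.24-fold (log2 0.31), while Vim was not called. S100a4 lies on chromosome 3, where the other tested genes had a median change of 0.30. The part of all these markers in the complement differences was not tested. In bulk samples, fewer cells with a transcript and less of it per cell cannot be told apart.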

How the data were processed

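The deposited values are raw counts of reads per gene for 3 wild-type and 3 Ube3d knockout libraries, made with a stranded kit after ribosomal RNA depletion, per the labels' protocols. STAR 2.6.1d, featureCounts 1.6.3 and mm10 or GRCm38 are named in the submitters' processing notes. The sources used here do not give the strand setting or how multiply aligned reads were treated. Gene length is the exon length per the file headers. All 10 genes overlapped the same symbol in GENCODE M21. The deposited counts of downstream regions carry no gene names and were not used.

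Groups and replicate numbers came from the titles. Libraries of 1 genotype differed beyond counting error (chi-square per gene 2.06 to 6.50). Counts of all genes were fitted with edgeR 4.0.16 in R 4.3.3 (quasi-likelihood F test, robust, TMM), with two-sided p-values adjusted by Benjamini-Hochberg. The count filter was filterByExpr at its defaults. It asks for a level equal to about 10 counts in as many libraries as 1 group holds, and 15 counts in all. A gene can thus pass through 1 group alone. SEs were obtained from the log2 fold change and F. The fit was tested on simulated data. RPKM is the TMM-scaled CPM per kb. Intervals and floors of 3 counts cover counting error only. Python 3.11.15, pandas 2.3.3 and matplotlib 3.10.9 made tables and plots.

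The 10 genes and the lists were chosen with earlier results of these data known. Named were the 10 genes, Ube3d, up to 4 called genes per role list, copies of the 10, up to 8 inducers, and neighbours that overlap a gene or lie within 5 kb upstream on its strand. Marker and other genes without counts were named after their values were seen. Alternatives were RLE factors, no filter, at least 1 CPM in 3 libraries, limma-voom (limma 3.58.1), DESeq2 1.42.0, the replicate number as a block, library sizes without Rn45s, the chromosome median, and each library left out. Some genes of the lists are not reported here and were left out of the list counts.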

Additional observations from a re-analysis of the deposited data

How the results depend on the processing

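Across RLE factors, both filters, DESeq2, limma-voom, the replicate block and library sizes without Rn45s, 5 of the 10 genes were called, 1 higher and 4 lower, and leaving out each library in turn called 5 to 6 in all, with 1 to 2 higher and 4 to 4 lower. C3, C1ra, Cfb, Masp1 and Cd59a kept their call and direction in each of these settings that could test them, with log2 ranges of −1.36 to −1.26, −0.82 to −0.57, 1.18 to 1.36, −0.27 to −0.19 and −0.64 to −0.62. These ranges leave out the comparison with the chromosome median, relative to which Cd59a stood at −0.39. Cd55 alone among the tested genes of the 10 changed its call. The uncalled changes of Cfp, C8g, Itgb2 and Ifngr2 took the other sign when some libraries were left out, with ranges over the libraries left out of −0.058 to 0.18, −0.10 to 0.31, −0.35 to 0.0061 and −0.0076 to 0.12. Replicate numbers did not pair the libraries: deviations of same-numbered libraries correlated at −0.05, −0.03 and −0.06, and no library correlated best with its own number. The replicate block called 7816 genes, beside 7955 without it, and 5 of the 10 genes. Depth limits Serping1, C4b, Cfd and Cfi, whose libraries held at most 15 counts each.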

Other observations

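A few complement genes had too few counts for the test and were noticed after their values were seen. Colec10, a soluble collectin of the lectin pathway, had 7, 8 and 7 counts in the wild-type libraries against 1, 3 and 1 in the knockout, a scaled ratio of 0.224 with an exact 95% binomial interval of 0.0664 to 0.607. Vtn, encoding vitronectin, which binds the terminal complex in solution, had 0 counts in wild type against 3, 0 and 4 in the knockout. Hc, encoding C5, had 3, 7 and 8 counts in wild type against 12, 5 and 9 in the knockout, and the groups overlapped.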
